A study of Mus musculus with 8 samples.

Results

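The genes described here build cholesterol and fatty acids. They were 29 listed genes, 21 of a sterol arm (the enzymes from acetyl-CoA to cholesterol, with the regulators Srebf2 and Insig1 and the sterol carrier Stard4) and 8 of a fatty acid arm. A gene counted as measured if, in at least 1 group, both arrays detected a probe of its name (detection p-value under 0.05), and the probe with the highest mean intensity stood for it. This left 26 of 29 genes, 18 sterol and all 8 fatty acid genes, among 8733 genes and 12932 probes tested. No probe carried the names Acat2, Mvk or Fdft1, so these were not analysed here.

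Total RNA of mouse embryonic stem (ES) cells of the B6D2F1 hybrid strain was hybridised to Illumina bead arrays, with 2 arrays in each of 4 groups. Normal ES cells came from embryos and carried no modification named in the labels. Parthenogenetic ES cells came from oocytes and carry only maternal genomes, and the lines of the other groups derive from such cells. By its label, the first modified line overexpresses Igf2, which encodes a growth factor and is normally silent on the maternal allele. The other, by its label, has down-regulated H19, an imprinted noncoding RNA gene next to Igf2. The names Igf2-labelled and H19-labelled are used here because the log2 intensity of Igf2 was 15.61 and 15.49 in the first and 15.58 and 15.62 in unmodified parthenogenetic ES cells, and no probe carried the name H19. The Igf2 probe was near the top of the intensity scale (42088 to 50505 units on those 4 arrays, where the brightest probe of each of the 8 arrays read 64070 to 67905), which limits what equal values can say about overexpression. On the H19-labelled arrays Igf2 was at 14.98 and 14.94, and on the normal arrays at 15.62 and 13.63. How each line was modified, and whether it was 1 clone, is not given in the sources used here. The labels speak of biological replicates without naming separate cultures, so every p-value reflects only the spread of these arrays, whose number limits the precision.

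Cells make cholesterol from acetyl-CoA through mevalonate, farnesyl diphosphate, squalene and lanosterol, and then by a series of reductions, demethylations and double bond shifts. Fatty acids are built from cytosolic acetyl-CoA by carboxylation and repeated condensation, and then elongated and desaturated. SREBP2, encoded by Srebf2, is held in the endoplasmic reticulum with SCAP by INSIG proteins when sterols are plentiful, and when they are scarce it is cleaved and activates nearly all sterol genes, while SREBP1 acts more on the fatty acid genes. SREBPs bind weakly alone and act with NF-Y, which binds the CCAAT box, and SP1, which binds GC boxes.

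RefSeq promoter windows (GRCm38.p6, 250 bases before to 50 after the annotated start) were found for 20 of the 26 measured genes. The CCAAT box, searched as CCAAT on both strands, was present in 15 of 18 windows of sterol genes (83.3%), in at least 1 window of each of the 15 sterol genes that had one. Of the windows of all genes tested 37.9% held it, as did 37.4% of all windows in the table. Among the fatty acid genes 2 of 5 windows held it. The GC box, GGGCGG on both strands, was in 83.3% of the sterol windows, 63.1% of those of the genes tested and 35.7% of all windows. Of the 5 fatty acid windows 2 held it (40.0%), a lower share than among the genes tested. A further motif searched, the E-box CACGTG, was in 22.2% of the sterol and 0.0% of the fatty acid windows. Of the windows of the genes tested 9.96% held the E-box. A form of the SREBP motif, TCACNCCAC on both strands, was in 1 sterol window, that of Hmgcs1, and in 1.24% of all windows. Such matches are descriptions of the letters in these windows.

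Windows of 4 genes are shown 5′ to 3′ on the gene's strand, with matches to CCAAT (or ATTGG, its other strand) and to TCACNCCAC in capitals. Mvd (chr8:122443373-122443672, minus strand) and Lss (chr10:76531355-76531654, plus strand) were higher on the H19-labelled than on the Igf2-labelled arrays, Hsd17b7 (chr1:169969156-169969455, minus strand) was lower there, and Hmgcs1 (chr13:119690101-119690400, plus strand) moved little and has the SREBP motif. They held 2, 1, 3 and 4 CCAAT boxes in that order. Each of the 15 sterol genes with a window held the motif, so its presence in these 4 says nothing about direction.
Mvd: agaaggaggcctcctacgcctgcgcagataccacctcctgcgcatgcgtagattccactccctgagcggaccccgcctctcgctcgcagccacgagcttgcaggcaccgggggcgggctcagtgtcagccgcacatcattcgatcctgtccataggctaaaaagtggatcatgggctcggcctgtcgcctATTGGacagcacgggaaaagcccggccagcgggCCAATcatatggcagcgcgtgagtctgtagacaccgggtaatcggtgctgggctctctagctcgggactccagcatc
Lss: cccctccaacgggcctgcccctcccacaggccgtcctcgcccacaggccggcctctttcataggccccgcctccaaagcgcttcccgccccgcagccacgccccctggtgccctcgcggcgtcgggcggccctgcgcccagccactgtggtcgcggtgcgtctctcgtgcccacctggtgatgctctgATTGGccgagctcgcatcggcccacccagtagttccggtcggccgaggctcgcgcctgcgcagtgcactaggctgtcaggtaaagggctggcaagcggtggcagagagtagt
Hsd17b7: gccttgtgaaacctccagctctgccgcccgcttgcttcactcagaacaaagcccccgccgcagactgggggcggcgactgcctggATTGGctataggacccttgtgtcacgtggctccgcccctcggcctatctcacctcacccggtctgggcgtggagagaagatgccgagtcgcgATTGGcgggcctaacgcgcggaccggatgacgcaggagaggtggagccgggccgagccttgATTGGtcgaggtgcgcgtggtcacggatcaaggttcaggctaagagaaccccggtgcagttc
Hmgcs1: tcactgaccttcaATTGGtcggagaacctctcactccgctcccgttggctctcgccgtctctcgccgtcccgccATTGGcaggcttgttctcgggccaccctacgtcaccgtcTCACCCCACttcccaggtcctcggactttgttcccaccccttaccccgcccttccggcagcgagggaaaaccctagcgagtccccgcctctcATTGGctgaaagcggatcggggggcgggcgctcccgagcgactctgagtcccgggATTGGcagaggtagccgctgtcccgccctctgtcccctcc

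The 2 normal arrays differed from each other far more than the other pairs. Their values correlated at 0.961 over the probes tested, against 0.995 to 0.996 in the other pairs, and 14 of the 26 genes differed between them by more than 0.3 on the log2 scale, against 2 or 3 genes in the other pairs. All 23 measured fibroblast markers of 30 listed were detected on 7 arrays and 22 on normal replicate 2. Their mean log2 intensity was 11.87 on normal replicate 1, 10.41 on normal replicate 2, 11.80 and 11.82 for parthenogenetic cells, 11.58 and 11.56 on the Igf2-labelled and 10.97 and 10.99 on the H19-labelled arrays. None of Col1a1, Col1a2 and Col3a1, the defining fibroblast genes, was at background on any array. Normal replicate 2 was also higher in the 5 measured endoderm markers, with a mean of 9.47 against 7.95 to 8.06 on the other arrays. The ES cell markers Pou5f1, Nanog, Sox2 and Zfp42 were detected on all 8 arrays. The arrays measured whole cultures, so fewer cells of a type and less RNA per cell cannot be told apart.

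All differences are on the log2 scale and come from limma fitted to all 8 arrays, where the groups share 1 spread per probe, with Benjamini-Hochberg adjustment over all 12932 probes and a threshold of 0.05. The distance between the normal arrays enters that spread, so comparisons of the other 3 groups are also given from a limma fit of the 6 other arrays, called the 6-array fit. Of 156 tests (26 genes in 6 comparisons) 2 passed over all 8 arrays, and in that fit no gene differed by 1 or more in any comparison.

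Both arms were lowest in the Igf2-labelled line. Among the 3 parthenogenetic groups the Igf2-labelled mean was the lowest for 21 of 26 genes, 14 of 18 sterol and 7 of 8 fatty acid genes, and the highest for none. Over all genes tested it was the lowest for 29.8% and the highest for 22.2%. The H19-labelled mean was the highest for 16 genes and the parthenogenetic mean for 10, against 42.2% and 35.6% of all genes. Relative to each gene's mean over the 8 arrays, the sterol arm averaged -0.18 and -0.17 on the Igf2-labelled arrays, 0.10 and 0.16 on the H19-labelled arrays, 0.04 and 0.09 in parthenogenetic and -0.01 and -0.03 in normal ES cells. The fatty acid arm averaged -0.18 and -0.18, 0.07 and 0.20, 0.03 and 0.10 and -0.09 and 0.06 in the same order. On both scales the Igf2-labelled arrays lay below the 6 others. The fibroblast markers stood in another order, at 0.20 and 0.19 on the Igf2-labelled arrays, between the parthenogenetic arrays at 0.43 and 0.44 and the H19-labelled arrays at -0.40 and -0.39.

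**Figure D1:**
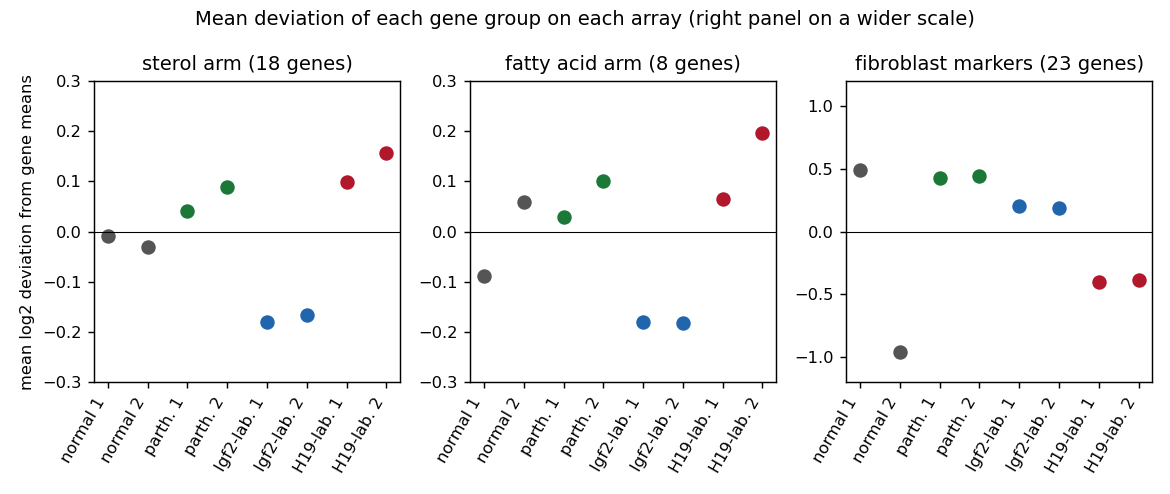
Mean log2 deviation of the sterol arm, the fatty acid arm and the fibroblast markers from each gene's own mean, 1 point per array (horizontal axis), coloured by group. Both arms were lowest on the 2 Igf2-labelled arrays, whereas the fibroblast markers were lowest on normal replicate 2 at -0.96.

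**Figure D2:**
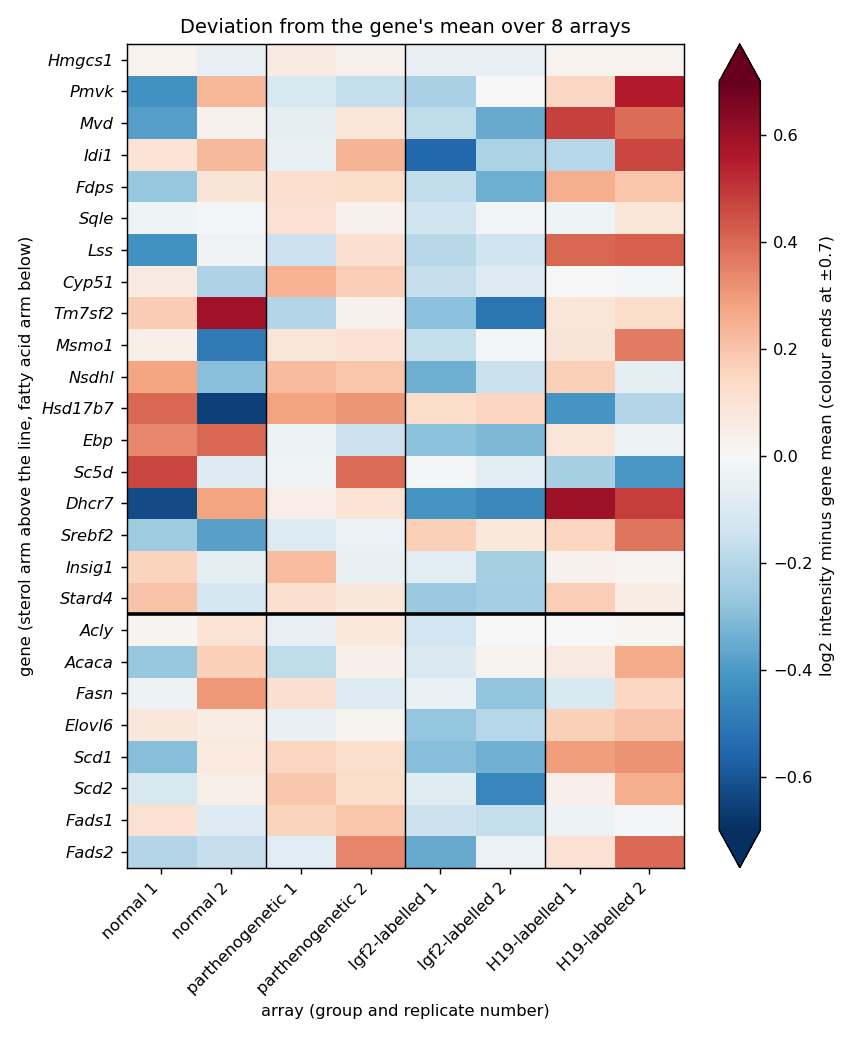
Log2 intensity of each of the 26 genes (rows, in pathway order) on each of the 8 arrays (columns), as the deviation from the gene's mean, blue for lower and red for higher. The Igf2-labelled columns are mostly blue, the H19-labelled columns are red for Mvd, Lss, Dhcr7 and Scd1 and blue for Hsd17b7, and the normal columns differ from each other.

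The first enzymes make mevalonate and activate it to isoprene units. Hmgcs1, the HMG-CoA synthase early in the pathway, lay between 14.79 and 14.91 on all 8 arrays, and none of its differences passed. Mvd, the decarboxylase that yields isopentenyl diphosphate, was at 10.68 and 10.59 on the H19-labelled arrays, 10.02 and 9.84 on the Igf2-labelled arrays, 10.14 and 10.29 for parthenogenetic and 9.81 and 10.23 for normal ES cells. Both H19-labelled arrays lay above the 6 others. Against the Igf2-labelled arrays the difference was 0.70 (SE 0.16, adjusted p = 0.187 in limma over 8 arrays, 0.00567 in the 6-array fit). Pmvk, phosphomevalonate kinase, was at 9.36 and 9.77 on the H19-labelled arrays, 8.99 and 9.22 on the Igf2-labelled arrays, 9.11 and 9.05 for parthenogenetic and 8.80 and 9.45 for normal ES cells. The H19-labelled arrays lay above the other parthenogenetic groups and overlapped the normal arrays, and the difference from parthenogenetic ES cells was 0.49 (SE 0.24, adjusted p = 0.273 in limma over 8 arrays, 0.0492 in the 6-array fit).

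Idi1, which isomerises isopentenyl diphosphate, was at 8.57 and 8.89 on the Igf2-labelled arrays, 8.91 and 9.58 on the H19-labelled arrays, 9.06 and 9.35 in parthenogenetic and 9.21 and 9.34 in normal ES cells. The Igf2-labelled arrays were below all others, but the H19-labelled replicates lay 0.67 apart, the widest such distance outside the normal pair. Its change of -0.48 against parthenogenetic ES cells did not pass (SE 0.24, adjusted p = 0.557 in limma over 8 arrays, 0.265 in the 6-array fit). Fdps, which makes farnesyl diphosphate, was at 13.00 and 12.83 on the Igf2-labelled arrays, against 13.29 and 13.30 for parthenogenetic cells. These arrays did not overlap, and the difference of -0.38 passed in the 6-array limma fit (adjusted p = 0.0434) but not over 8 arrays (0.378).

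Squalene epoxidase and the following enzymes make lanosterol. Sqle, often a rate-limiting step, varied only from 12.57 to 12.82 over the 8 arrays. On the Igf2-labelled arrays against parthenogenetic ES cells the probe used gave -0.15 and a second Sqle probe 0.004. Lss, the cyclase that closes the sterol rings, was at 10.66 and 10.68 on the H19-labelled arrays, 10.06 and 10.12 on the Igf2-labelled arrays, 10.11 and 10.37 for parthenogenetic and 9.83 and 10.23 for normal ES cells. As for Mvd, both H19-labelled arrays were above the 6 others. The Lss difference was 0.58 against the Igf2-labelled arrays (SE 0.16) and 0.43 against parthenogenetic ES cells, with adjusted p of 0.229 and 0.174 in limma over 8 arrays and 0.0122 and 0.0203 in the 6-array fit. Cyp51, the lanosterol demethylase, was at 11.43 and 11.36 for parthenogenetic cells, 11.02 and 11.10 on the Igf2-labelled and 11.19 and 11.18 on the H19-labelled arrays, and its Igf2-labelled difference of -0.33 passed in the 6-array limma fit (adjusted p = 0.0433; 0.378 over 8 arrays).

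Between lanosterol and cholesterol the genes did not move as 1 block. Dhcr7, which reduces 7-dehydrocholesterol to cholesterol in the last step, was at 9.77 and 9.66 on the H19-labelled arrays, 8.77 and 8.73 on the Igf2-labelled arrays, 9.23 and 9.27 for parthenogenetic and 8.56 and 9.45 for normal ES cells. The 3 parthenogenetic groups did not overlap, and the normal replicates lay on either side of the Igf2-labelled and unmodified parthenogenetic arrays, below both H19-labelled arrays. The difference of 0.97 between the H19-labelled and Igf2-labelled arrays was the widest of the 156 (SE 0.26, adjusted p = 0.226 in limma over 8 arrays, 0.00183 in the 6-array fit). Against the same parthenogenetic arrays it was -0.50 for the Igf2-labelled line and 0.47 for the H19-labelled line (adjusted p = 0.587 and 0.335 in limma over 8 arrays, 0.015 and 0.00534 in the 6-array fit).

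Hsd17b7, a keto-reductase of the demethylation complex, went the other way. It was at 10.50 and 10.71 on the H19-labelled arrays, 11.03 and 11.06 on the Igf2-labelled arrays, 11.19 and 11.22 for parthenogenetic and 11.31 and 10.26 for normal ES cells. The H19-labelled arrays and normal replicate 2, which had the lowest fibroblast marker levels, were also the lowest for Hsd17b7. The part of fibroblast content in this was not tested. Its H19-labelled difference from parthenogenetic ES cells was -0.60 (SE 0.31, adjusted p = 0.29 in limma over 8 arrays, 0.00391 in the 6-array fit). Sc5d, the desaturase before Dhcr7, was at 7.23 and 6.67 in normal ES cells, 6.73 and 7.15 for the parthenogenetic cells, 6.74 and 6.68 on the Igf2-labelled and 6.52 and 6.35 on the H19-labelled arrays. Its probe was not detected on either H19-labelled array or on normal replicate 2, so the levels there are only bounds. The probe entered the tests through the parthenogenetic and Igf2-labelled groups, the only ones where both arrays detected it. The replicates of normal and parthenogenetic ES cells lay apart. No Sc5d difference passed over 8 arrays. In the 6-array fit the H19-labelled arrays passed as lower than parthenogenetic ES cells (adjusted p = 0.0403 in limma). The detection filter favours that direction, so the call is no evidence of a fall, and no fold is given.

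Nsdhl, a dehydrogenase of the same demethylation complex encoded on chromosome X, was at 8.88 and 9.07 on the Igf2-labelled arrays, 9.39 and 9.16 on the H19-labelled arrays, 9.45 and 9.42 in parthenogenetic and 9.50 and 8.93 in normal ES cells. The Igf2-labelled arrays lay below the parthenogenetic arrays, at -0.46 without passing (adjusted p = 0.47 in limma over 8 arrays, 0.0517 in the 6-array fit). Its 3 other probes gave -0.37, -0.50 and -0.05 in the same comparison. Tm7sf2, a C14 sterol reductase, was at 7.51 and 7.92 in normal ES cells, 7.13 and 7.37 for parthenogenetic cells, 7.05 and 6.82 on the Igf2-labelled and 7.42 and 7.46 on the H19-labelled arrays. Both Igf2-labelled arrays were below the 6 others, at -0.78 against normal ES cells (SE 0.17, adjusted p = 0.0955 in limma over 8 arrays). The H19-labelled arrays stood above them by 0.51, which passed in the 6-array fit (adjusted p = 0.0273 in limma). The Tm7sf2 probe was near the detection limit on the Igf2-labelled arrays, at 236 and 205 units (detection p-values 0.02 and 0.03). Its difference from normal ES cells ran from -0.99 to -0.49 over the alternative settings. Msmo1, the C4 methyl oxidase, ran from 11.25 on normal replicate 2 to 12.11 on H19-labelled replicate 2, and none of its differences passed.

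Ebp, the sterol isomerase that shifts the ring double bond, is also on chromosome X and was 1 of the 2 calls over 8 arrays. It was at 11.15 and 11.22 in normal ES cells, 10.78 and 10.67 for parthenogenetic cells, 10.53 and 10.50 on the Igf2-labelled and 10.90 and 10.78 on the H19-labelled arrays. Both normal arrays were above the 6 others and both Igf2-labelled arrays below the 6 others, and here the normal replicates agreed within 0.07. The Igf2-labelled arrays were lower than normal ES cells at -0.67 (SE 0.11, adjusted p = 0.0492 in limma). Parthenogenetic and H19-labelled arrays were at -0.46 and -0.34 against normal ES cells without passing (adjusted p = 0.282 and 0.135 in limma). The Igf2-labelled call was lost with a replicate block, array weights, only the groups compared or no detection filter. Over the alternative settings the difference ran from -0.70 to -0.63.

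Among the regulators, Srebf2, which encodes the pathway's activator, was the other call. It was at 10.64 and 10.51 in normal ES cells, 10.79 and 10.85 for parthenogenetic cells, 11.06 and 10.97 on the Igf2-labelled and 11.04 and 11.26 on the H19-labelled arrays. The normal arrays were below the 6 others, and the modified lines overlapped. The H19-labelled arrays were higher than normal ES cells by 0.58 (SE 0.12, adjusted p = 0.0488 in limma). That call was lost with a replicate block, array weights or only the groups compared. Over the alternative settings the difference ran from 0.47 to 0.69. The Igf2-labelled arrays, where most of the sterol enzymes were lowest, were not low in Srebf2, at 0.19 against parthenogenetic ES cells (adjusted p = 0.705 in limma over 8 arrays, 0.284 in the 6-array fit). Insig1, which retains the SREBP complex and is itself an SREBP target, lay between 11.07 and 11.51 with no difference past the threshold. Stard4, which carries sterols between membranes, was at 10.18 and 10.20 on the Igf2-labelled and 10.55 and 10.51 in parthenogenetic ES cells, a change of -0.34 that passed in the 6-array limma fit (adjusted p = 0.0437; 0.403 over 8 arrays).

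**Figure D3:**
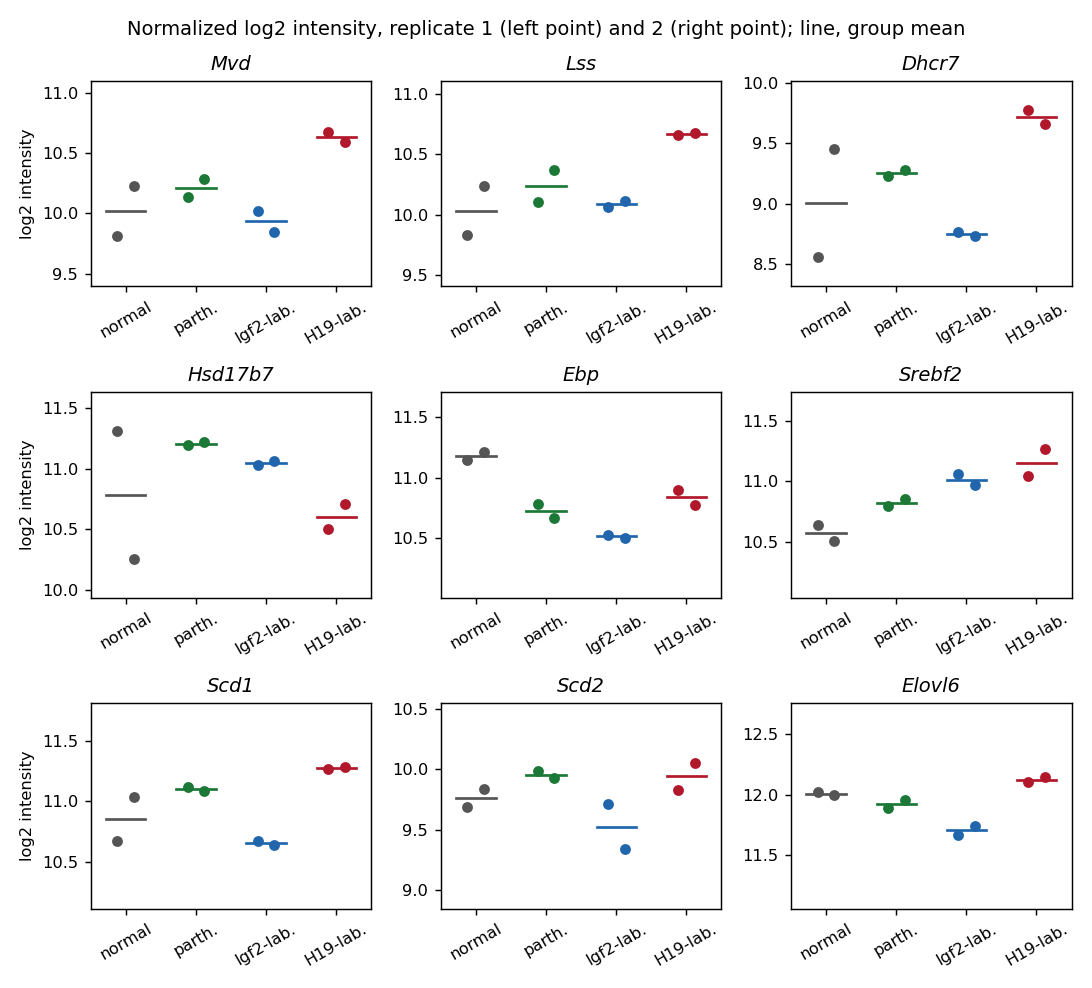
Normalized log2 intensity (vertical axes, of equal span) of 9 genes in the 4 groups, 2 arrays each, with the group mean as a line. Mvd, Lss and Scd1 were highest on the H19-labelled arrays, Hsd17b7 was lower there than on the parthenogenetic and Igf2-labelled arrays, Ebp was highest and Srebf2 lowest in normal ES cells, and the normal replicates lay far apart for Dhcr7 and Hsd17b7.

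In the fatty acid arm the desaturases and the elongase Elovl6 differed most. Scd1, a stearoyl-CoA desaturase that makes oleate, was at 10.67 and 10.64 on the Igf2-labelled arrays, 11.27 and 11.29 on the H19-labelled arrays, 11.12 and 11.08 in parthenogenetic and 10.67 and 11.04 in normal ES cells. The 3 parthenogenetic groups did not overlap. Scd1 was at -0.45 on the Igf2-labelled arrays against parthenogenetic ES cells (SE 0.14, adjusted p = 0.266 in limma over 8 arrays, 0.0157 in the 6-array fit) and the H19-labelled arrays were 0.62 above the Igf2-labelled arrays (adjusted p = 0.175 and 0.00286). Scd2, its paralogue beside it on chromosome 19, was at 9.71 and 9.34, 9.83 and 10.05, 9.99 and 9.92 and 9.68 and 9.84 in the same order of groups. Its Igf2-labelled replicates lay 0.37 apart, and its change of -0.43 against parthenogenetic ES cells did not pass (adjusted p = 0.36 in limma over 8 arrays, 0.118 in the 6-array fit). Whether the probes of these near copies tell their transcripts apart was not tested.

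Elovl6, which lengthens palmitate to stearate, was at 11.67 and 11.74 on the Igf2-labelled arrays, 12.11 and 12.14 on the H19-labelled arrays, 11.89 and 11.96 in parthenogenetic and 12.02 and 11.99 in normal ES cells. The H19-labelled arrays were above and the Igf2-labelled arrays below the 4 others, a difference of 0.42 (SE 0.10, adjusted p = 0.193 in limma over 8 arrays, 0.0121 in the 6-array fit). Fads1 and Fads2 encode the desaturases of polyunsaturated fatty acids. Fads1 was at 12.57 and 12.55 on the Igf2-labelled and 12.87 and 12.91 in parthenogenetic ES cells, and the change of -0.33 passed in the 6-array limma fit (adjusted p = 0.0337; 0.311 over 8 arrays). Fads2 was at 7.57 and 7.88 on the Igf2-labelled arrays, 8.03 and 8.32 on the H19-labelled arrays, 7.84 and 8.26 in parthenogenetic and 7.71 and 7.76 in normal ES cells, with the H19-labelled above the Igf2-labelled arrays and the parthenogenetic above the normal arrays, but no difference passed in either fit.

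The enzymes that build the chain itself showed smaller differences, though the Fasn probe was near the detection limit. Acly, which supplies cytosolic acetyl-CoA from citrate, lay between 13.60 and 13.83 on the 8 arrays. Acaca, the acetyl-CoA carboxylase, was at 11.63 and 11.83 on the H19-labelled arrays, 11.47 and 11.59 on the Igf2-labelled arrays, 11.39 and 11.61 for parthenogenetic and 11.31 and 11.74 for normal ES cells. Fasn, the fatty acid synthase, was at 7.09 and 7.34, 7.15 and 6.92, 7.31 and 7.10 and 7.16 and 7.50 in the same order. Its intensities of 212 to 262 units lay close to the array medians of 172 to 197, so small differences cannot show that Fasn was steady. For Acaca the H19-labelled arrays lay above those of the other parthenogenetic groups and overlapped the normal arrays, for Fasn all groups but the Igf2-labelled and normal arrays overlapped, and no difference passed in either fit.

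The H19-labelled arrays stood above the Igf2-labelled arrays in both arms. In this comparison 24 of 26 genes were higher, all 8 fatty acid genes and 16 of 18 sterol genes, with medians of 0.32 for the sterol and 0.31 for the fatty acid arm, beside 0.03 for all genes tested. The arrays did not overlap, with H19-labelled higher, for 21 genes (80.8%), against 34.9% of all probes. Over 8 arrays none passed in limma, where 0.201% of probes did, and 11 genes (42.3%) had an unadjusted p under 0.05, against 13.9% of probes. In the 6-array fit 9 rose, Mvd, Fdps, Lss, Tm7sf2, Ebp, Dhcr7, Stard4, Elovl6 and Scd1, and 1, Hsd17b7, fell, against 8.54% and 11.9% of probes. Fibroblast markers were lower for all 23 measured genes in the same comparison, with a median of -0.62, and ES cell markers higher for 7 of 11, with a median of 0.16. Their part in the difference was not tested.

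Against parthenogenetic ES cells, the Igf2-labelled arrays were lower for 23 of 26 genes, with medians of -0.23 for the sterol and -0.27 for the fatty acid arm, beside -0.01 for all genes. Only Srebf2, Pmvk and Acaca were not lower. The arrays did not overlap, with Igf2-labelled lower, for 18 genes (69.2%), against 29.2% of probes. None passed over 8 arrays in limma, where 0.541% of probes did, and 6 (23.1%) had an unadjusted p under 0.05, against 11.1%. In the 6-array fit 6 fell, Fdps, Cyp51, Dhcr7, Stard4, Scd1 and Fads1, against 4.21% of probes, and none rose, against 5.38%. Fibroblast markers were lower for 22 of 23 genes beside them, with a median of -0.25, and their part was not tested.

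The H19-labelled arrays shared those parthenogenetic controls and showed no common direction. Of the 26 genes 16 were higher and 10 lower, with medians of 0.07 and 0.06 beside 0.01 for all genes. None passed over 8 arrays in limma, where 4.35% of probes did, and 3 had an unadjusted p under 0.05 (11.5%, against 23% of probes). In the 6-array fit Pmvk, Mvd, Lss, Dhcr7 and Srebf2 rose and Hsd17b7 and Sc5d fell, 7 of 26 genes (26.9%), below the 33.1% of all probes that passed. The 7 include Sc5d, whose probe was not detected on the H19-labelled arrays. Fibroblast markers were lower for all 23 genes, with a median of -0.90. The arrays did not overlap for 16 genes (61.5%), against 69.1% of probes, so by neither count did these genes stand out.

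**Figure D4:**
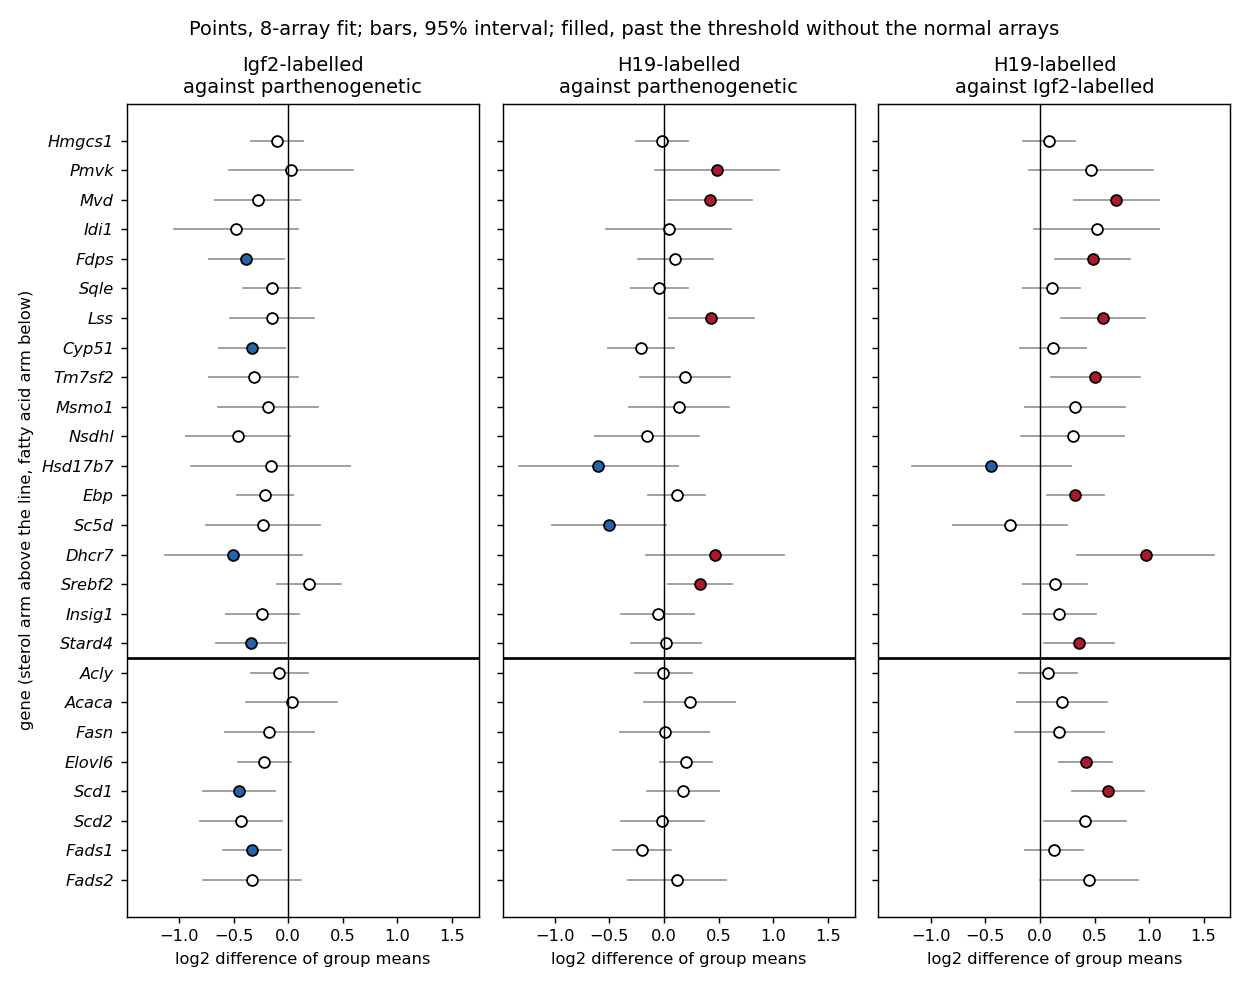
Log2 differences (horizontal axes) of the 26 genes (vertical axis) in the 3 comparisons among parthenogenetic groups, with 95% intervals of the 8-array limma fit. Filled points passed in the 6-array fit, red for higher and blue for lower, and most points lie left of 0 for the Igf2-labelled line, on both sides for the H19-labelled line, and right of 0 for the direct comparison. The first 2 panels share their parthenogenetic arrays.

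Comparisons with normal ES cells rested on the discordant pair. Parthenogenetic ES cells were higher for 17 of 26 genes, with medians of 0.14 and 0.07 beside -0.01 for all genes, the arrays did not overlap for 13 (50%, against 35.9% of probes), none passed in limma (0.108% of probes did), and 2, Tm7sf2 and Ebp, had an unadjusted p under 0.05 (7.69%, against 11% of probes). Without normal replicate 1 the sterol median was 0.09, and without normal replicate 2 it was 0.04, each time against 1 normal array. Igf2-labelled arrays were lower than normal ES cells for 21 of 26, with medians of -0.13 and -0.18, the arrays did not overlap, with Igf2-labelled lower, for 10 (38.5%, against 21.4% of probes), and only Ebp passed in limma, as lower (3.85%, against 0.603% of probes lower and 1.05% in either direction). Without normal replicate 1 or 2 the fatty acid median was -0.25 and -0.11. H19-labelled arrays were higher for 17 of 26, with medians of 0.06 and 0.15, the arrays did not overlap for 13 (50%, against 42.9% of probes), and only Srebf2 passed in limma, as higher (3.85%, against 2.95% of probes higher and 5.03% in either direction). Without normal replicate 1 or 2 the sterol median was 0.17 and 0.02. For Dhcr7 the H19-labelled difference was 0.27 against normal replicate 2 alone and 1.16 against normal replicate 1 alone. Hsd17b7 changed sign, at 0.35 and -0.70.

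Other genes of the pathways were taken from lists that hold no member. Of 5 other sterol synthesis genes 2 were measured and of 10 SREBP regulators 6, and none passed over 8 arrays in any comparison. Lbr, a second C14 sterol reductase that is also a nuclear envelope protein, was at 12.91 and 12.90 on the H19-labelled and 12.37 and 12.54 on the Igf2-labelled arrays, a difference of 0.45 that passed in the 6-array limma fit (adjusted p = 0.0146). Scap, the escort of SREBPs, was at -0.20 on the Igf2-labelled and -0.35 on the H19-labelled line against parthenogenetic cells, and only the second passed in the 6-array limma fit (adjusted p = 0.047). Erlin2, an endoplasmic reticulum protein that restrains SREBP activation, was at 9.83 and 9.90 on the H19-labelled arrays and 10.31 and 10.21 for parthenogenetic cells, a difference of -0.40 that also passed there (adjusted p = 0.00952 in limma, 0.106 over 8 arrays). These 2 of 6 measured regulators (33.3%) stand beside 33.7% of all genes passing in that fit. Srebf1, which encodes SREBP1, lay between 6.47 and 6.88 and passed in no comparison or fit. These levels were close to the 6.35 to 6.67 at which the Sc5d probe was not detected. They therefore cannot show that Srebf1 was steady.

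Of the 3 measured genes of cholesterol uptake and lysosomal release (8 listed), Npc2 and Lipa, which free cholesterol from lysosomes, were lower on the H19-labelled arrays than in parthenogenetic ES cells, at -0.57 and -0.49 (adjusted p = 0.147 and 0.1 in limma over 8 arrays, 0.00276 and 0.00592 in the 6-array fit). These 2 of 3 (66.7%) stand beside 33.7% of all genes passing in that fit. Vldlr, the third, was at -0.14 without passing. Apoe, the only measured gene of 7 listed for cholesterol efflux and esterification, was at -0.42 and passed in the 6-array fit. Fibroblast markers were lower in the same comparison, and their part was not tested. Of 18 measured other fatty acid genes (23 listed), 2 rose and 6 fell in that comparison in the 6-array fit (44.4%, beside 33.7% of all genes). Mid1ip1, a partner of acetyl-CoA carboxylase, was at 10.83 and 11.07 in normal ES cells, 10.80 and 10.84 for parthenogenetic cells, 10.51 and 10.29 on the Igf2-labelled and 10.17 and 10.21 on the H19-labelled arrays. The H19-labelled arrays lay below all others, and Mid1ip1 fell against parthenogenetic and normal ES cells, at -0.64 and -0.76 (adjusted p = 0.049 and 0.0252 in limma). Lpin1, a phosphatidate phosphatase of lipid assembly, rose by 0.60 on the H19-labelled arrays against normal ES cells (adjusted p = 0.0342 in limma). The citrate carrier gene Slc25a1 was lower than in parthenogenetic ES cells in both modified lines, at -0.40 and -0.31 (adjusted p = 0.226 and 0.171 over 8 arrays, 0.0458 and 0.0434 in the 6-array limma fit).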

How the data were processed

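Each probe's intensity and detection p-value were deposited per array, with no scaling between arrays, per the file headers. A second deposited table, on the log2 scale, holds 12690 probes, and its columns share 1 distribution, as after normalization between arrays. Neither the scanner software nor that normalization is stated in the labels or headers. RNA was amplified into biotinylated cRNA, per the labels' protocols. The header of the table names each column's sample, and 0 columns were unassigned. The median intensity per array was 172.1 to 196.7 units.

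The neqc function (offset 16) of limma 3.58.1 (R 4.3.3) corrected the background, normalized by quantiles and took log2. Probes that both arrays of any group detected were fitted with lmFit and eBayes as 4 group means (4 residual and 2.81 prior degrees of freedom). Of the tested probes 997 had no gene name in the platform annotation. Names were updated through gene identifiers in the RefSeq table (GRCm38.p6). The fit was tested on simulated data with the same spread in all 4 groups. That setting does not mimic the wide distance between the normal arrays.

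The members and lists were chosen with earlier results of these data known, so no test of a list was made. Values are given array by array for the 17 members that passed in any comparison or had the 3 (sterol) or 2 (fatty acid) largest differences in one, and the other 9 mainly by their range. Alternatives were other background corrections, detection filters, the authors' log2 table, all probes of a gene, a replicate block, a trended and robust prior, array weights, the groups compared alone, no normal arrays, and each array left out. Replicate numbers do not pair samples in the labels.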

Additional observations from a re-analysis of the deposited data

How the results depend on the processing

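The 2 arrays per group limit every test, and the number of calls depended on whether and how the normal arrays were fitted. Members past the threshold numbered 0 over 8 arrays in the 3 comparisons among parthenogenetic groups. Without both normal arrays they numbered 6 for Igf2-labelled against parthenogenetic (23.1%, beside 9.61% of all genes tested). For H19-labelled against parthenogenetic they numbered 7 (26.9%, beside 33.7%), and for H19-labelled against Igf2-labelled 10 (38.5%, beside 21.4%). In the same order of comparisons, array weights gave 7, 7 and 10, and only the groups compared gave 2, 4 and 9. No share of all genes is given for those settings, so these counts show only the dependence on the setting. With each array left out in turn, counts above 0 arose only without a normal array. Array weights were 0.162 for the normal arrays and 1.73 to 1.99 for the others.

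Against normal ES cells the count depended on which array was left out. Such fits left 1 array in a group, so their counts and p-values are not given. The single Igf2-labelled call, Ebp, and the single H19-labelled call, Srebf2, were both lost (0 calls) with a replicate block (adjusted p = 0.0946 and 0.0851 in limma), array weights (0.585 and 0.469) and only the groups compared (0.493 and 0.326), and Ebp also with no detection filter (0.0514). Over all alternatives the 2 differences ran from -0.70 to -0.63 for Ebp and from 0.47 to 0.69 for Srebf2. By the labels, same-numbered arrays share only a number. The differences of replicate 1 minus replicate 2 correlated at -0.03 to 0.17 between groups, with 0.17 between the 2 modified lines. Whether same-numbered arrays shared a batch was not tested.

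The sterol median was 0.19 for parthenogenetic against normal with detection on all 8 arrays (0.038 to 0.20 with each array left out). For Igf2-labelled against parthenogenetic it was -0.19 with no background correction and -0.19 in the authors' log2 table (-0.29 to -0.20), and the fatty acid median -0.22 in both (-0.30 to -0.23). For H19-labelled against parthenogenetic the sterol median was 0.10 with detection on all 8 arrays and 0.10 as the mean of all probes (0.038 to 0.081), and the fatty acid median -0.02 to 0.16. For H19-labelled against normal the sterol median was 0.12 as the mean of all probes (0.019 to 0.17), and the fatty acid median 0.09 to 0.21. For H19-labelled against Igf2-labelled the sterol median ran from 0.22 to 0.38 and the fatty acid median from 0.21 to 0.37. Against normal, the fatty acid median ran from -0.0028 to 0.13 for parthenogenetic and from -0.25 to -0.11 for Igf2-labelled arrays, with a sterol median of -0.16 to -0.11 for the latter. The causes were not tested.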

Other observations

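The genes of fatty acid oxidation, the opposing pathway, had a median of -0.06 on the Igf2-labelled arrays against parthenogenetic ES cells. There 8 of 13 measured genes were lower (61.5%, beside 53.1% of all genes). On the H19-labelled against the Igf2-labelled arrays the median was 0.13, with 9 of 13 higher (69.2%, beside 54.5%). None passed over 8 arrays in limma in either comparison. In these 2 comparisons 0 and 1 had an unadjusted p under 0.05 (0.0% and 7.69%, beside 10.8% and 14.0% of all genes). Between the H19-labelled line and its unmodified parthenogenetic counterpart, none of the 13 passed over 8 arrays in limma. There 4 had an unadjusted p under 0.05 (30.8%, beside 23.1% of all genes). In the 6-array fit 4 of 13 passed (30.8%), below the 33.7% of all genes that did, and all 23 fibroblast markers were lower in this comparison (median -0.90), whose part was not tested. Slc25a20, the carnitine carrier, Acadm, a medium-chain dehydrogenase, and Etfa, which passes on its electrons, rose there by 0.33, 0.43 and 0.29, and the very-long-chain dehydrogenase gene Acadvl was at -0.58 (adjusted p = 0.0203, 0.00853, 0.0221 and 0.0114 in that fit, 0.151, 0.192, 0.148 and 0.101 over 8 arrays).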
